A study of Macaca mulatta with 12 samples.

Results

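The genes described here are the heat shock proteins and DNAJ co-chaperones of a rhesus macaque expression table, 56 of its 16745 genes. They were chosen by symbol alone, as the DNAJA, DNAJB and DNAJC genes, the HSPA, HSPB and HSP90 genes, HSPH1, HSPD1 and HSPE1, with HSPA5 left out, a rule that uses no measured value. Of the 56 genes, 19 are heat shock proteins and 37 are DNAJ genes. The RNA came from cultures labelled as cardiomyocytes made from macaque induced pluripotent stem cells, with 3 libraries in each of 4 groups. The groups were engineered heart tissue (EHT, cells grown in 3D) exposed to hypoxia, monolayers exposed to hypoxia, EHT in normoxia and monolayers in normoxia. All 4 groups were grown in RPMI medium with an insulin-containing B27 supplement, and the labels name no genetic change in any of them. Hypoxia meant 24 hours in an anaerobic pouch and then 24 hours after new medium was given. The labels do not say when RNA was taken or whether the normoxia cultures also received new medium, so low oxygen and the change of medium cannot be told apart. They also do not say that the libraries of a group came from separate cultures or differentiations. P-values therefore measure only the spread between these libraries, which may be technical. The libraries were made from bulk RNA, in which fewer cells of a type and less RNA per cell cannot be told apart.

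Heat shock proteins are molecular chaperones that bind unfolded protein, help it fold, hold it in solution or pass it to degradation. HSP70 proteins work in an ATP-driven cycle in which a DNAJ protein delivers the client and starts ATP hydrolysis, and an HSP110 protein or another exchange factor releases the nucleotide. HSP90 proteins act later on a narrower set of clients, and small heat shock proteins hold unfolded protein without ATP. Heart muscle carries several small heat shock proteins at high levels, and the endoplasmic reticulum and mitochondria each have their own HSP70, HSP90 and DNAJ proteins. Many cytosolic members are targets of heat shock factor 1, whereas several members of the endoplasmic reticulum are targets of the unfolded protein response. Roles given below are those known in human and mouse.

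The libraries held 4154346 to 11298841 reads over 11784 to 14372 genes with reads. The cell type label was checked against its markers. The 9 cardiomyocyte markers together took 0.00147% to 0.0750% of reads in EHT in hypoxia and 0.526% to 0.579% in monolayers in hypoxia. In normoxia they took 0.00135% to 0.0157% of reads in EHT and 0.0471% to 0.344% in monolayers. In EHT hypoxia replicate 3, the markers MYH6 and TNNI3 were at 0 reads. The 7 fibroblast markers took 5.10% to 6.77% in EHT in hypoxia, 4.35% to 4.87% in monolayers in hypoxia, 5.14% to 6.28% in EHT in normoxia and 3.31% to 7.02% in monolayers in normoxia. The 5 epithelial markers took 0.0865% to 0.472% of reads in monolayers in normoxia and at most 0.00730% in any library of the other 3 groups. The EHT libraries thus went against their cardiomyocyte label at the level of these markers. In every monolayer library, too, the fibroblast markers took more reads than the cardiomyocyte markers. Sums over lists of different genes do not give proportions of cells. Monolayer normoxia replicate 3, at 0.0471%, had a lower cardiomyocyte marker share than EHT hypoxia replicates 1 and 2, at 0.0583% and 0.0750%. The groups are called by their culture below. Whether the marker genes have a part in any chaperone difference between EHT and monolayers, or between oxygen conditions, was not tested.

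Levels are given as log2 values of the deposited table, shifted so that the median of each library over the tested genes was the same, and called centred levels. A difference of 1 on this scale is a doubling of a well-expressed gene and understates the fold of a gene with few reads. Of the 56 members, 50 had a mean that exceeded the table's lowest value by 1 log2 unit or more and were tested among 12084 genes, and 47 had reads in every library. DNAJA2, DNAJB7, DNAJB8 and DNAJB13 were listed at 0 reads in all 12 libraries, which allows up to 2.66e-05% of reads in the deepest library and 7.22e-05% in the shallowest, by counting error alone. For these genes, absent RNA and reads lost to the annotation or the counting cannot be told apart. The other 2 untested members were DNAJC12, with at most 28 reads in a library, and DNAJC22, with at most 6 reads. DNAJC12 lay just outside the filter, with a mean 0.98 above the lowest value, and HSPA1L just inside it, at 1.02, with 0 to 16 reads per library. HSP90AA1, HSPA1A, HSPA2, HSPA6, HSPD1, HSPE1, HSPB2, HSPB9, DNAJA3, DNAJB1, DNAJB3, DNAJB11, DNAJB12 and DNAJC8 were not analysed here.

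Chaperone genes were both higher and lower after hypoxia, in either culture. In EHT, 14 of 50 tested members rose and 14 fell with hypoxia at an adjusted p under 0.05 (limma, Benjamini-Hochberg over all 12084 genes), where 35.5% of all genes were called, 19.5% higher and 16.0% lower. In monolayers, 13 rose and 8 fell, where 46.5% of all genes were called, 27.8% higher and 18.6% lower. The median difference of the members was 0.02 in EHT and 0.06 in monolayers, against 0.03 and 0.07 over all genes tested. In normoxia, 17 members were higher in EHT than in monolayers and 5 were lower, where 41.2% of all genes were called, 22.8% higher and 18.5% lower. In hypoxia, 14 were higher in EHT and 12 were lower, where 38.1% of all genes were called, 18.4% higher and 19.7% lower. The share of members called thus lay close to the share of all genes called in the monolayer hypoxia and the normoxia culture comparisons. It was above that share in the other 2, without a test of this difference. In all, 42 members were called in at least 1 of the 5 comparisons, and DNAJA4, DNAJC2, DNAJC4, DNAJC11, DNAJC17, DNAJC24, DNAJC27 and HSPB3 were called in none. The share of all genes called in at least 1 comparison was not counted, and 24.5% to 46.5% of all genes were called in each single one.

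**Figure D1:**
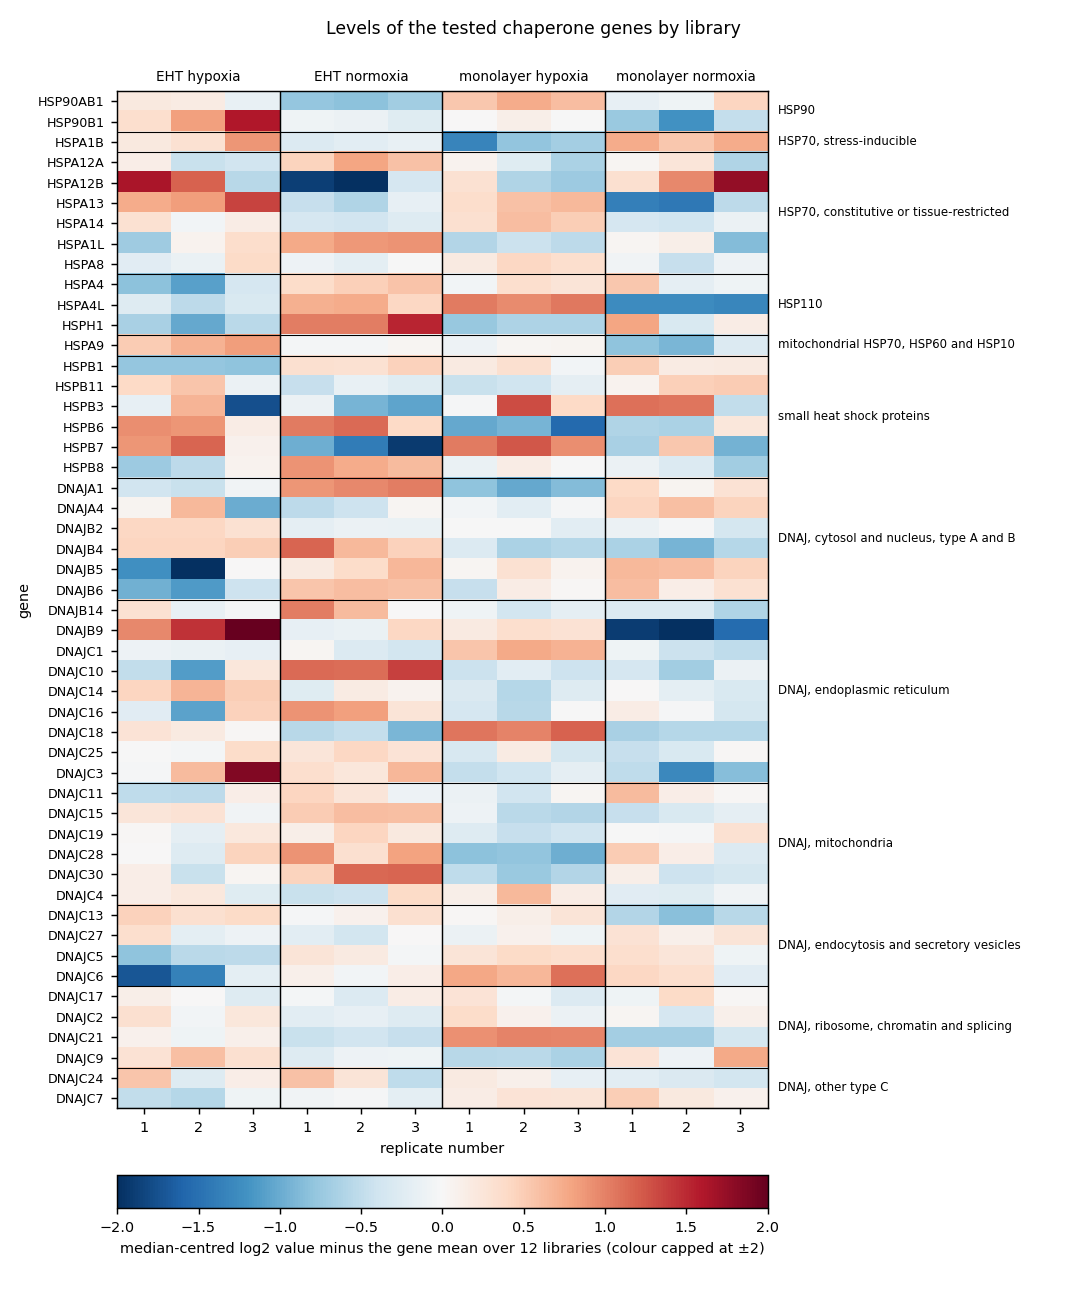
Centred log2 level of each of the 50 tested members (rows, grouped by role) in each of the 12 libraries (columns, by group and replicate number), shown as the difference from the gene's mean over all libraries, with colour capped at 2 log2 units either way. The 3 HSP110 genes HSPA4, HSPA4L and HSPH1 are blue in the hypoxic EHT libraries and red in the normoxic ones, and DNAJB9 is darkest blue in monolayers in normoxia.

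These counts rest on the centring. The deposited values without centring had library medians that ranged over 1.77 log2 units. Without centring, 4 members rose and 2 fell with hypoxia in EHT, and 2 rose and 8 fell in monolayers. For EHT against monolayers, 1 was higher and 8 lower in normoxia, and 2 higher and 2 lower in hypoxia. The median of all genes moved by 0.15 in the EHT hypoxia comparison, by -0.55 in the monolayer hypoxia comparison, and by -0.74 and -0.04 in the culture comparisons in normoxia and hypoxia. All changes below are relative to the library medians. Calls made on both scales in the same direction were those of DNAJB9, HSPA12B, HSPA13, HSPB7, DNAJC10 and HSPH1 for hypoxia in EHT. For hypoxia in monolayers they were those of DNAJB9, HSPA4L, DNAJA1, DNAJC9, DNAJC28, HSPA1B, HSPB6, HSPB11 and HSPH1. For culture they were those of DNAJB9, HSP90AB1, HSPA12B, HSPA1B, HSPB7 and HSPB11 in normoxia and of HSPA1B, HSPB6, DNAJC6 and HSPA4L in hypoxia. No member was called in opposite directions on the 2 scales. With 1 library left out, the count of members that rose in EHT was 9 without EHT normoxia replicate 1, and the count that fell in monolayers was 5 without monolayer hypoxia replicate 1 or 3 or monolayer normoxia replicate 2 or 3. In normoxia, the count lower in EHT was 8 without EHT hypoxia replicate 3 and 3 without EHT normoxia replicate 2 or 3, and in hypoxia the count higher in EHT was 9 without monolayer hypoxia replicate 2 or 3.

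Relative to the library medians, the 2 HSP90 genes both rose with hypoxia in both cultures. HSP90B1 encodes GRP94, the HSP90 of the endoplasmic reticulum. Its centred levels were 14.39, 14.87 and 15.66 in EHT in hypoxia and 13.97, 13.94 and 13.82 in EHT in normoxia. In monolayers they were 14.06, 14.18 and 14.04 in hypoxia and 13.31, 12.84 and 13.57 in normoxia. The groups did not overlap in either culture, and EHT hypoxia replicate 3 stood highest. The hypoxia difference was 1.06 ± 0.28 (adjusted p = 0.00954) in EHT and 0.85 ± 0.28 (adjusted p = 0.0221) in monolayers, here and below with the standard error of the fit. Without both EHT libraries numbered 3, the EHT difference was 0.67. HSP90AB1 encodes the constitutive cytosolic HSP90. It had levels of 14.02, 13.99 and 13.69 in EHT in hypoxia, 14.36, 14.57 and 14.45 in monolayers in hypoxia, 13.05, 13.01 and 13.14 in EHT in normoxia and 13.67, 13.74 and 14.25 in monolayers in normoxia. It rose by 0.83 ± 0.18 (adjusted p = 0.00309) with hypoxia in EHT and by 0.57 ± 0.18 (adjusted p = 0.0182) in monolayers. Without centring, neither HSP90 gene passed the test for hypoxia in either culture. The median difference of the 2 genes was then 1.10 in EHT and 0.16 in monolayers. The pair parted by culture. In hypoxia, HSP90B1 was higher in EHT than in monolayers by 0.88 ± 0.28 (adjusted p = 0.0241), and HSP90AB1 was lower, with a difference of -0.56 ± 0.18 (adjusted p = 0.0245). In normoxia, HSP90AB1 was lower in EHT, with a difference of -0.82 ± 0.18 (adjusted p = 0.00286). The hypoxia call in monolayers was lost for HSP90B1 without any 1 of monolayer hypoxia replicates 1, 2 and 3 and monolayer normoxia replicate 2 (adjusted p = 0.0514 to 0.0984), and for HSP90AB1 without any 1 of monolayer hypoxia replicate 2 and monolayer normoxia replicates 1 and 2 (adjusted p = 0.0637 to 0.0686). The culture call in hypoxia was lost for HSP90B1 without any 1 of EHT hypoxia replicate 3 and monolayer hypoxia replicates 1, 2 and 3 (adjusted p = 0.0537 to 0.0718), with a difference of 0.53 without EHT hypoxia replicate 3, and for HSP90AB1 without any 1 of EHT hypoxia replicate 3 and monolayer hypoxia replicates 2 and 3 (adjusted p = 0.0636 to 0.0862).

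The 3 HSP110 genes fell together with hypoxia in EHT, and for each of them the hypoxia difference was lower in EHT than in monolayers. These proteins exchange the nucleotide of HSP70 and keep clients soluble. HSPA4L (also known as APG1) had centred levels of 8.24, 7.98 and 8.19 in EHT in hypoxia and 9.21, 9.25 and 8.91 in EHT in normoxia. In monolayers its levels were 9.54, 9.44 and 9.55 in hypoxia and 7.25, 7.23 and 7.19 in normoxia. No 2 groups that were compared overlapped, and the order of hypoxia and normoxia was opposite in the 2 cultures. The hypoxia difference was -0.99 ± 0.13 (adjusted p = 0.000131) in EHT and 2.29 ± 0.13 (adjusted p = 1.66e-07), a 4.88-fold rise, in monolayers. The interaction, the hypoxia difference in EHT minus that in monolayers, was -3.27 ± 0.19 (adjusted p = 3.45e-06) and had the smallest adjusted p of any member. HSPA4L was accordingly lower in EHT than in monolayers in hypoxia (-1.37) and higher in normoxia (1.90). HSPH1 (HSP105), a heat-inducible member of the class, had levels of 7.94, 7.56 and 8.06 in EHT in hypoxia and 9.61, 9.61 and 10.12 in EHT in normoxia. In monolayers they were 7.83, 7.98 and 7.97 in hypoxia and 9.38, 8.28 and 8.74 in normoxia. HSPH1 fell with hypoxia in both cultures, with a difference of -1.93 ± 0.25 (adjusted p = 8.66e-05) in EHT and -0.88 ± 0.25 (adjusted p = 0.0108) in monolayers. HSPA4 (APG2) had levels of 9.01, 8.73 and 9.49 in EHT in hypoxia and 10.18, 10.30 and 10.39 in EHT in normoxia, which did not overlap, and differed by -1.21 ± 0.21 (adjusted p = 0.000886). In monolayers HSPA4 had levels of 9.76, 10.16 and 10.07 in hypoxia and 10.36, 9.64 and 9.74 in normoxia, and its difference of 0.09 ± 0.21 did not pass the test. The interaction was -1.30 ± 0.30 for HSPA4 and -1.05 ± 0.35 for HSPH1 (adjusted p = 0.00824 and 0.0429). The interaction call of HSPH1 was lost without any 1 library other than EHT hypoxia replicate 3 and monolayer normoxia replicate 1 (adjusted p = 0.0572 to 0.0985).

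**Figure D2:**
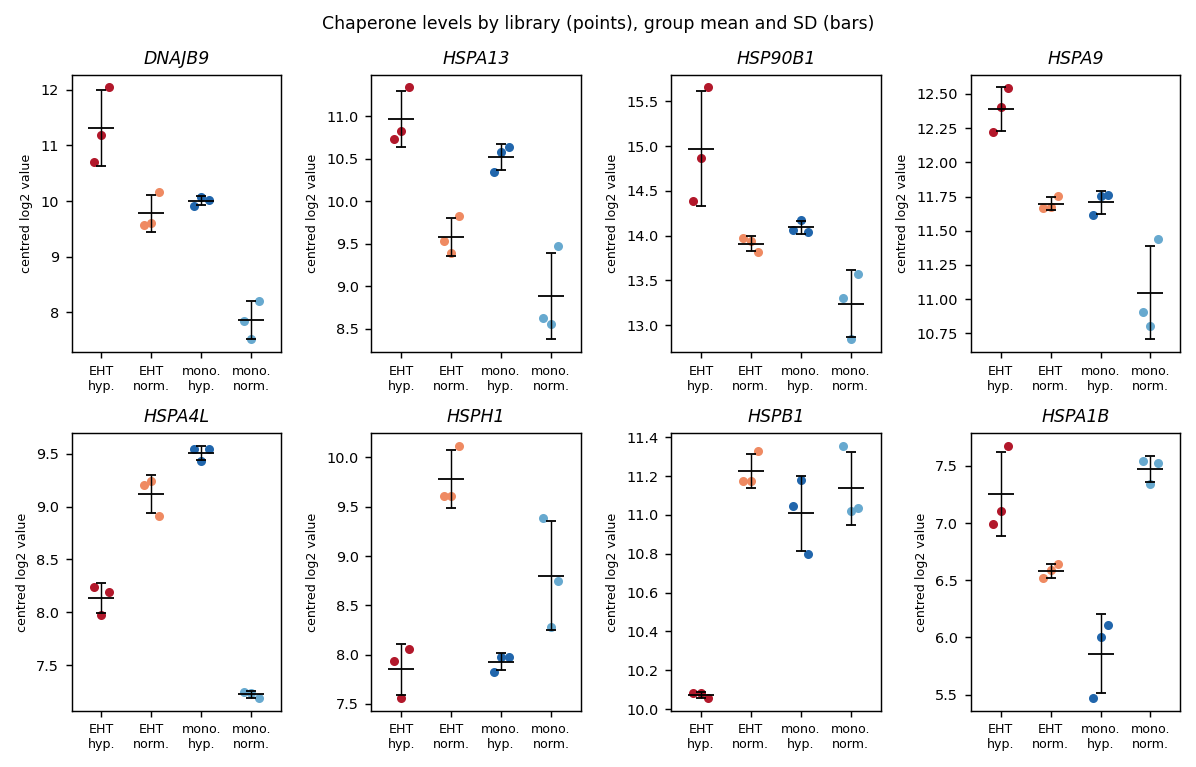
Centred log2 level of 8 members in each library, with 3 points and their mean for each group; EHT in hypoxia and in normoxia stand on the left of each panel and monolayers in hypoxia and in normoxia on the right. DNAJB9, HSPA13, HSP90B1 and HSPA9 are higher in hypoxia in both cultures, HSPA4L is lower in EHT and higher in monolayers, and HSPA1B is higher in EHT and lower in monolayers.

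HSPA1B, which encodes the strongly heat-inducible cytosolic HSP70, also had opposite hypoxia differences in the 2 cultures. It had 77, 94 and 96 reads in EHT in hypoxia and 44, 92 and 98 in EHT in normoxia. In monolayers it had 21, 53 and 55 reads in hypoxia and 364, 307 and 253 in normoxia. The centred levels were 6.99, 7.10 and 7.67 in EHT in hypoxia, 5.47, 6.00 and 6.11 in monolayers in hypoxia, 6.52, 6.59 and 6.64 in EHT in normoxia and 7.54, 7.34 and 7.53 in monolayers in normoxia. It rose by 0.67 ± 0.23 (adjusted p = 0.036) with hypoxia in EHT, and in monolayers its difference was -1.61 ± 0.23 (adjusted p = 0.000104). The interaction was 2.28 ± 0.32 (adjusted p = 0.000476). The rise in EHT lost its call without any 1 of EHT hypoxia replicate 3 and EHT normoxia replicates 1, 2 and 3 (adjusted p = 0.0609 to 0.103), while the fall in monolayers and the interaction kept theirs without any 1 library. HSPA1A, its near-identical copy, was not analysed here, so reads that the authors' counting may have split between the 2 genes make the level of HSPA1B uncertain. The symbol HSPA1B was also absent from RefSeq's list of macaque genes.

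Among the other HSP70 genes, HSPA13 and HSPA14 rose with hypoxia in both cultures, and HSPA8 did so in monolayers. HSPA13, a truncated HSP70 of the endoplasmic reticulum, had centred levels of 10.73, 10.83 and 11.35 in EHT in hypoxia and 9.53, 9.39 and 9.83 in EHT in normoxia. In monolayers its levels were 10.35, 10.58 and 10.64 in hypoxia and 8.63, 8.55 and 9.47 in normoxia. The differences were 1.39 ± 0.23 (adjusted p = 0.000672) in EHT and 1.64 ± 0.23 (adjusted p = 0.000117) in monolayers. HSPA14, which works with DNAJC2 at the ribosome, rose by 0.46 ± 0.14 in EHT and 0.76 ± 0.14 in monolayers (adjusted p = 0.0216 and 0.000775), and the EHT call was lost without any 1 of EHT hypoxia replicate 1 and EHT normoxia replicates 1 and 2 (adjusted p = 0.061 to 0.0791). HSPA8, the constitutive HSC70, had levels of 13.21, 13.30 and 13.81 in EHT in hypoxia, 13.60, 13.84 and 13.77 in monolayers in hypoxia, 13.33, 13.23 and 13.42 in EHT in normoxia and 13.35, 12.96 and 13.32 in monolayers in normoxia. Its difference in monolayers was 0.53 ± 0.18 (adjusted p = 0.0291), which was -0.02 without centring. That call was lost without any 1 of monolayer hypoxia replicates 2 and 3 and monolayer normoxia replicate 2 (adjusted p = 0.0786 to 0.119). In EHT the HSPA8 groups overlapped and the difference of 0.11 ± 0.18 did not pass the test. HSPA12A, an atypical HSP70 abundant in brain, fell in EHT by a difference of -0.84 ± 0.28 (adjusted p = 0.0315), a call lost without any 1 of EHT hypoxia replicates 2 and 3 and EHT normoxia replicates 1, 2 and 3 (adjusted p = 0.0511 to 0.106).

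HSPA12B, an atypical HSP70 known from endothelial cells, was a gene of few reads. It had 88, 68 and 10 reads in EHT in hypoxia, 31, 17 and 16 in monolayers in hypoxia, 1, 0 and 23 in EHT in normoxia and 91, 157 and 211 in monolayers in normoxia. The EHT groups overlapped at replicate 3, whose level was 4.97 in hypoxia and 5.19 in normoxia. The differences were 2.17 ± 0.60 (adjusted p = 0.0137) for hypoxia in EHT, -2.43 ± 0.60 (adjusted p = 0.0064) for culture in normoxia and 3.52 ± 0.85 (adjusted p = 0.01) for the interaction. The first of these lost its call without any 1 of EHT hypoxia replicates 1 and 2 and EHT normoxia replicates 1 and 2 (adjusted p = 0.053 to 0.0609), and was 3.37 without both EHT libraries numbered 3. HSPA1L, an HSP70 gene best known from testis, was higher in EHT in normoxia by 1.08 ± 0.39, on 8, 14 and 16 reads in EHT and 9, 13 and 5 reads in monolayers. That call was lost without any 1 library other than EHT hypoxia replicates 1, 2 and 3 and monolayer normoxia replicates 1 and 2 (adjusted p = 0.0524 to 0.152).

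HSPA9, the mitochondrial HSP70 (mortalin), was higher with hypoxia in both cultures and higher in EHT than in monolayers in both oxygen conditions. Its centred levels were 12.22, 12.40 and 12.54 in EHT in hypoxia, 11.61, 11.76 and 11.76 in monolayers in hypoxia, 11.67, 11.68 and 11.75 in EHT in normoxia and 10.91, 10.80 and 11.44 in monolayers in normoxia. The hypoxia difference was 0.69 ± 0.16 (adjusted p = 0.00493) in EHT and 0.66 ± 0.16 (adjusted p = 0.00446) in monolayers. The culture difference was 0.68 ± 0.16 (adjusted p = 0.00531) in hypoxia and 0.65 ± 0.16 (adjusted p = 0.00602) in normoxia, the last being -0.09 without centring. Without centring, the hypoxia difference was 0.84 in EHT and 0.11 in monolayers. All 4 calls held without any 1 library, and all were lost without centring.

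The small heat shock proteins did not move as 1 group: of 6 tested genes, 1 rose and 2 fell with hypoxia in EHT, and 1 rose and 2 fell in monolayers. The 2 falls in monolayers were those of HSPB6 and HSPB11. HSPB11 was counted here by its symbol, although its protein acts in intraflagellar transport. Of all genes, 19.5% rose and 16.0% fell in EHT, and 27.8% rose and 18.6% fell in monolayers. HSPB7, the cardiovascular small heat shock protein of heart and skeletal muscle, was the 1 of the 6 that rose in both cultures. It had levels of 10.74, 11.02 and 9.95 in EHT in hypoxia and 8.89, 8.47 and 7.94 in EHT in normoxia, with replicate 3 lowest in both groups. In monolayers its levels were 10.90, 11.11 and 10.79 in hypoxia and 9.21, 10.40 and 8.91 in normoxia. The rise was 2.14 ± 0.36 (adjusted p = 0.000712), or 4.41-fold, in EHT and 1.42 ± 0.36 (adjusted p = 0.0065) in monolayers. Beside HSPB7, the cardiomyocyte markers had a median hypoxia difference of 1.70 in EHT, where 2 of 9 rose, and of 2.33 in monolayers, where 4 of 9 rose. Without centring, 7 of 9 rose in either culture. In both EHT groups replicate 3 also had the lowest marker share, 0.00147% in hypoxia and 0.00135% in normoxia. The part of the markers in the HSPB7 differences was not tested. HSPB6 (HSP20), a small heat shock protein of muscle, was higher in EHT than in monolayers. Its levels were 9.72, 9.67 and 8.94 in EHT in hypoxia, 7.76, 7.85 and 7.22 in monolayers in hypoxia, 9.82, 9.91 and 9.18 in EHT in normoxia and 8.18, 8.14 and 9.01 in monolayers in normoxia. The culture difference of HSPB6 was 1.83 ± 0.29 (adjusted p = 0.000462) in hypoxia and 1.19 ± 0.29 (adjusted p = 0.00587) in normoxia. HSPB6 fell in monolayers with hypoxia, by a difference of -0.84 ± 0.29 (adjusted p = 0.0314), a call lost without any 1 of monolayer hypoxia replicates 1 and 3 and monolayer normoxia replicate 3 (adjusted p = 0.0506 to 0.14), with a difference of -0.56 without monolayer normoxia replicate 3.

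HSPB1 (HSP27), the broadly expressed heat-inducible small heat shock protein, fell in EHT. Its levels were 10.08, 10.08 and 10.06 in EHT in hypoxia, 11.05, 11.18 and 10.80 in monolayers in hypoxia, 11.18, 11.17 and 11.33 in EHT in normoxia and 11.36, 11.02 and 11.04 in monolayers in normoxia. The hypoxic EHT libraries lay below the other 9, which overlapped between groups. The difference was -1.15 ± 0.13 (adjusted p = 3.91e-05) in EHT and -0.13 ± 0.13 in monolayers, where it did not pass the test, and the interaction was -1.02 ± 0.19 (adjusted p = 0.00212). HSPB8 (HSP22), which works with BAG3 in chaperone-assisted autophagy, likewise fell in EHT. It had levels of 7.92, 8.13 and 8.72 in EHT in hypoxia and 9.56, 9.39 and 9.28 in EHT in normoxia, and the difference was -1.15 ± 0.21 (adjusted p = 0.000994). In monolayers HSPB8 had levels of 8.52, 8.80 and 8.65 in hypoxia and 8.53, 8.38 and 7.96 in normoxia, and its difference of 0.37 ± 0.21 did not pass. The interaction of HSPB8 was -1.52 ± 0.29 (adjusted p = 0.00291). In normoxia, HSPB8 was higher in EHT than in monolayers by 1.12 ± 0.21 (adjusted p = 0.00101), and HSPB7 was lower, with a difference of -1.08 ± 0.36 (adjusted p = 0.0314) and a call lost without any 1 of EHT normoxia replicates 2 and 3 and monolayer normoxia replicate 2 (adjusted p = 0.0667 to 0.139). Without monolayer normoxia replicate 2 the HSPB7 difference was -0.63. HSPB11, a protein of intraflagellar transport despite its name, had an interaction of 1.25 ± 0.32 (adjusted p = 0.0145). Its call for hypoxia in monolayers was lost without any 1 of monolayer hypoxia replicates 1 and 2 and monolayer normoxia replicates 2 and 3 (adjusted p = 0.0752 to 0.0837), and its culture calls were lost without any 1 library other than EHT hypoxia replicates 1, 2 and 3 and monolayer normoxia replicate 1 (adjusted p = 0.0522 to 0.133) in normoxia and without any 1 library other than EHT hypoxia replicate 3 and monolayer normoxia replicate 1 (adjusted p = 0.0568 to 0.157) in hypoxia. HSPB3, a muscle gene, had 0 to 65 reads per library and was called nowhere.

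**Figure D3:**
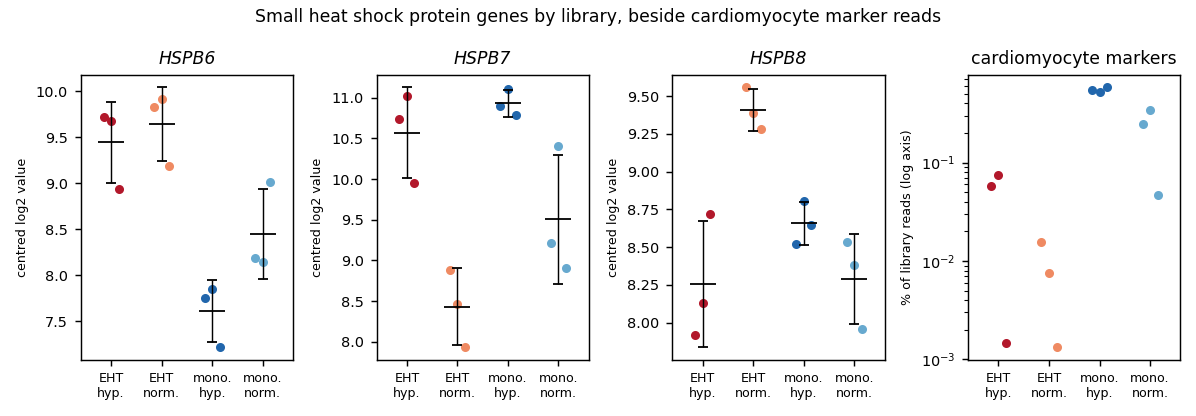
Centred log2 level of HSPB6, HSPB7 and HSPB8 in each library, with group means, beside the summed share of reads of the 9 cardiomyocyte markers (percent of library reads, log axis). HSPB6 is higher in EHT than in monolayers in both oxygen conditions and the marker share is lower, at most 0.0750% in EHT in hypoxia and at least 0.526% in monolayers in hypoxia. HSPB7 is higher in hypoxia than in normoxia in both cultures, and both HSPB7 and the marker share are lowest at replicate 3 in either EHT group.

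Of the 6 tested DNAJA and DNAJB genes of the cytosol and nucleus, 1 rose and 3 fell with hypoxia in EHT, and 1 fell in monolayers. Of all genes, 19.5% rose and 16.0% fell in EHT, and 27.8% rose and 18.6% fell in monolayers. DNAJA1, a main type A partner of HSC70, fell in both cultures. Its levels were 9.52, 9.46 and 9.83 in EHT in hypoxia and 10.79, 10.86 and 10.93 in EHT in normoxia. In monolayers its levels were 9.09, 8.89 and 9.04 in hypoxia and 10.30, 9.96 and 10.19 in normoxia. The hypoxia difference was -1.26 ± 0.13 (adjusted p = 2.31e-05) in EHT and -1.14 ± 0.13 (adjusted p = 2.54e-05) in monolayers. DNAJB6, which keeps aggregation-prone proteins soluble, fell in EHT. It had levels of 7.81, 7.63 and 8.35 in hypoxia and 9.32, 9.39 and 9.35 in normoxia, which differed by -1.42 ± 0.21 (adjusted p = 0.000235). In monolayers the DNAJB6 levels were 8.30, 8.92 and 8.79 in hypoxia and 9.39, 8.89 and 9.08 in normoxia, and the difference of -0.45 ± 0.21 did not pass. Its interaction call (-0.97 ± 0.29) was lost without any 1 library other than EHT hypoxia replicate 3, EHT normoxia replicate 3, monolayer hypoxia replicate 1 and monolayer normoxia replicate 1 (adjusted p = 0.0545 to 0.0818). DNAJB5, a heat-inducible partner of class II histone deacetylases, had 22, 7 and 51 reads in EHT in hypoxia and 65, 153 and 195 in EHT in normoxia. Its difference was -1.53 ± 0.39 (adjusted p = 0.00933), and -1.01 without EHT hypoxia replicate 2. In hypoxia, DNAJB5 was lower in EHT than in monolayers by a difference of -1.26 ± 0.39, lost without any 1 of EHT hypoxia replicates 1 and 2 and monolayer hypoxia replicates 1, 2 and 3 (adjusted p = 0.0518 to 0.0791).

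By culture, DNAJB4 and DNAJA1 were higher in EHT than in monolayers in both oxygen conditions. DNAJB4, a type B protein close to DNAJB1 and known from skeletal muscle, had levels of 7.07, 7.06 and 7.13 in EHT in hypoxia, 6.36, 6.00 and 6.06 in monolayers in hypoxia, 7.79, 7.29 and 7.09 in EHT in normoxia and 6.00, 5.71 and 6.06 in monolayers in normoxia. All 6 EHT values lay above all 6 monolayer values. The culture difference of DNAJB4 was 0.95 ± 0.22 (adjusted p = 0.00452) in hypoxia and 1.47 ± 0.22 (adjusted p = 0.000197) in normoxia. That of DNAJA1 was 0.60 ± 0.13 (adjusted p = 0.00408) in hypoxia and 0.71 ± 0.13 (adjusted p = 0.00116) in normoxia, the last being -0.02 without centring. DNAJB2, a ubiquitin-binding DNAJ protein of neurons and muscle, rose with hypoxia in EHT by 0.52 ± 0.12 (adjusted p = 0.0058). DNAJB2 was also higher in EHT than in monolayers in hypoxia by 0.45 ± 0.12, lost without monolayer hypoxia replicate 3 (adjusted p = 0.0528). DNAJB6 was lower in EHT in hypoxia by a difference of -0.74 ± 0.21, lost without any 1 of EHT hypoxia replicate 2 and monolayer hypoxia replicates 2 and 3 (adjusted p = 0.0537 to 0.066).

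The 9 tested DNAJ genes of the endoplasmic reticulum held DNAJB9, the DNAJ gene with the largest rise in both hypoxia comparisons. ERdj4, the protein of DNAJB9, hands misfolded protein to degradation, and the gene is a target of the unfolded protein response. DNAJB9 had levels of 10.70, 11.19 and 12.05 in EHT in hypoxia and 9.57, 9.61 and 10.16 in EHT in normoxia. In monolayers its levels were 9.91, 10.08 and 10.03 in hypoxia and 7.84, 7.53 and 8.21 in normoxia. Hypoxia lay above normoxia in every library of both cultures, and EHT hypoxia replicate 3 was highest. The rise was 1.53 ± 0.29 (adjusted p = 0.00127), or 2.89-fold, in EHT and 2.15 ± 0.29 (adjusted p = 6.59e-05), or 4.43-fold, in monolayers. DNAJB9 was also higher in EHT than in monolayers, by 1.31 ± 0.29 (adjusted p = 0.00352) in hypoxia and 1.92 ± 0.29 (adjusted p = 0.000214) in normoxia. DNAJC3 (P58IPK), a lumenal co-chaperone of BiP, was higher in EHT than in monolayers but its hypoxia differences did not pass the test. Its levels were 8.71, 9.38 and 10.59 in EHT in hypoxia, 8.27, 8.35 and 8.56 in monolayers in hypoxia, 9.08, 8.96 and 9.40 in EHT in normoxia and 8.24, 7.46 and 7.89 in monolayers in normoxia. The culture difference of DNAJC3 was 1.17 ± 0.36 (adjusted p = 0.0217) in hypoxia and 1.28 ± 0.36 (adjusted p = 0.0124) in normoxia. The hypoxic culture call was lost without any 1 of monolayer hypoxia replicates 1 and 2 (adjusted p = 0.0625 to 0.0661) and was 0.66 without EHT hypoxia replicate 3, and the normoxic one was lost without monolayer normoxia replicate 2 (adjusted p = 0.0546).

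DNAJC10 (ERdj5), a disulfide reductase that feeds misfolded protein into degradation, went the other way in EHT. It had levels of 9.13, 8.50 and 9.84 in EHT in hypoxia and 10.75, 10.73 and 10.98 in EHT in normoxia, which did not overlap. In monolayers the levels were 9.20, 9.40 and 9.21 in hypoxia and 9.28, 8.92 and 9.50 in normoxia, which overlapped. The hypoxia difference was -1.67 ± 0.26 (adjusted p = 0.000389) in EHT and 0.04 ± 0.26 in monolayers, where it did not pass, and the interaction was -1.70 ± 0.37 (adjusted p = 0.00579). DNAJC18, a little-studied membrane DNAJ protein of this compartment, rose in both cultures. Its levels were 7.82, 7.71 and 7.56 in EHT in hypoxia, 8.61, 8.53 and 8.72 in monolayers in hypoxia, 6.99, 7.07 and 6.62 in EHT in normoxia and 6.88, 6.97 and 6.97 in monolayers in normoxia. The rise was 0.80 ± 0.16 (adjusted p = 0.00204) in EHT and 1.68 ± 0.16 (adjusted p = 5.58e-06) in monolayers, and the interaction was -0.88 ± 0.23 (adjusted p = 0.0137). DNAJC1 (ERdj1), which binds ribosomes at the membrane, rose in monolayers by 1.003 ± 0.15 (adjusted p = 0.000128) and had an interaction of -0.93 ± 0.21 (adjusted p = 0.00636). In normoxia, 5 of the 9 genes were higher in EHT and 0 lower, with 0 lower also at an unadjusted limma p under 0.05 and with voom, where 22.8% of all genes were higher and 18.5% lower. Their median difference was 0.74, and without centring it was 0.003, with 1 of the 9 higher. Besides DNAJB9, DNAJC3 and DNAJC10 (1.59) these were DNAJB14 and DNAJC25, which lost their calls without EHT normoxia replicate 1 (adjusted p = 0.0581) and without any 1 of EHT normoxia replicates 1, 2 and 3 and monolayer normoxia replicates 1 and 2 (adjusted p = 0.0573 to 0.106). DNAJC25 had the opposite sign (-0.18) without centring. DNAJC14 rose in EHT by 0.53 ± 0.16, a call lost without any 1 of EHT hypoxia replicate 2 and EHT normoxia replicate 1 (adjusted p = 0.072 to 0.0886), and its interaction call (0.73 ± 0.22) was lost without any 1 of EHT hypoxia replicate 2, EHT normoxia replicate 1, monolayer hypoxia replicate 2 and monolayer normoxia replicate 1 (adjusted p = 0.0623 to 0.0787). DNAJC16 fell in EHT, with groups that overlapped and a call lost without any 1 library other than EHT hypoxia replicate 3, EHT normoxia replicate 3 and monolayer normoxia replicate 3 (adjusted p = 0.0526 to 0.184).

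Of the 6 tested mitochondrial DNAJ genes, 1 fell with hypoxia in EHT and 2 fell in monolayers. Of all genes, 19.5% rose and 16.0% fell in EHT, and 27.8% rose and 18.6% fell in monolayers. DNAJC30, which acts on respiratory complex I, fell in EHT by a difference of -1.004 ± 0.29 (adjusted p = 0.0171), lost without any 1 of EHT hypoxia replicate 2 and EHT normoxia replicates 2 and 3 (adjusted p = 0.0631 to 0.0725). In monolayers, DNAJC19, a partner of the protein import motor, differed by -0.46 ± 0.17 (adjusted p = 0.0455), lost without any 1 library other than EHT hypoxia replicates 2 and 3 (adjusted p = 0.0503 to 0.161). DNAJC28 differed by -0.98 ± 0.31 (adjusted p = 0.0201), lost without any 1 of monolayer hypoxia replicate 3 and monolayer normoxia replicates 1 and 2 (adjusted p = 0.0505 to 0.0865). DNAJC15 (MCJ), an inner-membrane protein that restrains respiratory complex I, was higher in EHT than in monolayers. Its levels were 6.80, 6.84 and 6.49 in EHT in hypoxia, 6.46, 6.02 and 5.97 in monolayers in hypoxia, 7.07, 7.18 and 7.16 in EHT in normoxia and 6.09, 6.26 and 6.38 in monolayers in normoxia. The culture difference of DNAJC15 was 0.89 ± 0.20 (adjusted p = 0.00363) in normoxia, where DNAJC30 was also higher in EHT, by 1.13 ± 0.29. In hypoxia the difference of DNAJC15 was 0.56 ± 0.20, lost without any 1 library other than EHT hypoxia replicate 3, monolayer hypoxia replicate 1 and monolayer normoxia replicates 1 and 3 (adjusted p = 0.0511 to 0.138). The other gene higher in EHT in hypoxia was DNAJC28 (0.93 ± 0.31), lost without any 1 of EHT hypoxia replicates 1 and 3 and monolayer hypoxia replicates 1, 2 and 3 (adjusted p = 0.0531 to 0.0876).

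Among the DNAJ genes of endocytosis and secretory vesicles, DNAJC5 and DNAJC6 were lower in hypoxic EHT. DNAJC6 encodes auxilin, which uncoats clathrin vesicles and is best known from neurons. It had levels of 4.94, 5.30 and 6.46 in EHT in hypoxia, 7.43, 7.31 and 7.75 in monolayers in hypoxia, 6.75, 6.60 and 6.78 in EHT in normoxia and 7.06, 6.99 and 6.43 in monolayers in normoxia. It differed by -1.93 ± 0.33 (adjusted p = 0.000781) between EHT and monolayers in hypoxia, and its interaction was -1.82 ± 0.47 (adjusted p = 0.0138). Its fall with hypoxia in EHT (-1.15 ± 0.33) lost its call without any 1 of EHT hypoxia replicates 1 and 2 (adjusted p = 0.0624 to 0.0705). DNAJC5, the cysteine string protein, had levels of 6.99, 7.25 and 7.27 in EHT in hypoxia, 8.05, 8.17 and 8.12 in monolayers in hypoxia, 8.04, 7.97 and 7.75 in EHT in normoxia and 8.12, 8.02 and 7.70 in monolayers in normoxia. It fell with hypoxia in EHT, by a difference of -0.75 ± 0.16 (adjusted p = 0.00296), and was lower in EHT than in monolayers in hypoxia, with -0.95 ± 0.16 (adjusted p = 0.000691). DNAJC13 (RME-8), which works at endosomes, rose with hypoxia in monolayers by 0.79 ± 0.13 (adjusted p = 0.000351).

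Of the 4 tested DNAJ genes of ribosome, chromatin and splicing, DNAJC9 and DNAJC21 carried all calls. DNAJC21, which acts in maturation of the large ribosomal subunit, rose in both cultures. Its levels were 9.03, 8.86 and 9.03 in EHT in hypoxia, 9.84, 9.93 and 9.92 in monolayers in hypoxia, 8.48, 8.56 and 8.48 in EHT in normoxia and 8.26, 8.25 and 8.59 in monolayers in normoxia. The rise was 0.46 ± 0.13 (adjusted p = 0.012) in EHT and 1.53 ± 0.13 (adjusted p = 2.06e-06) in monolayers, with an interaction of -1.07 ± 0.18 (adjusted p = 0.00129). DNAJC9, a histone chaperone, had opposite differences. Its levels were 8.63, 8.94 and 8.66 in EHT in hypoxia and 8.08, 8.23 and 8.24 in EHT in normoxia. In monolayers its levels were 7.78, 7.80 and 7.69 in hypoxia and 8.61, 8.23 and 9.08 in normoxia. The hypoxia difference was 0.56 ± 0.19 (adjusted p = 0.0362) in EHT and -0.88 ± 0.19 (adjusted p = 0.0021) in monolayers, and the interaction was 1.44 ± 0.27 (adjusted p = 0.00243). The call in EHT was lost without any 1 of EHT hypoxia replicate 2, EHT normoxia replicates 1, 2 and 3 and monolayer hypoxia replicate 1 (adjusted p = 0.051 to 0.128). The summed share of 5 cycling markers was 0.00751% to 0.0181% of reads in EHT in hypoxia, 0.0311% to 0.0354% in monolayers in hypoxia, 0.0203% to 0.0228% in EHT in normoxia and 0.0608% to 0.0810% in monolayers in normoxia. The part of these markers in the DNAJC9 differences was not tested. DNAJC7, a co-chaperone that binds both HSP70 and HSP90, was lower in hypoxic EHT than in hypoxic monolayers, with a difference of -0.61 ± 0.16 (adjusted p = 0.00823).

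Set side by side, 9 members rose with hypoxia in both cultures: DNAJB9, DNAJC18, DNAJC21, HSP90AB1, HSP90B1, HSPA9, HSPA13, HSPA14 and HSPB7. Both DNAJA1 and HSPH1 fell in both. The share of all genes called in both cultures, alike or in opposite directions, was not counted. HSPA1B and DNAJC9 rose in EHT and fell in monolayers, and HSPA4L fell in EHT and rose in monolayers. The difference itself was tested as the interaction, in which 5 members were higher in EHT and 12 lower, where 24.5% of all genes were called, 10.3% higher and 14.1% lower. Without centring, 4 members were higher and 1 lower in the interaction, and the median of all genes moved by 0.70. The 5 calls made on both scales were those of DNAJC9, HSPA12B, HSPA1B, HSPB11 and HSPA4L. The median interaction was -0.29 over the members and -0.08 over all genes tested. Of the 9 genes that rose in both cultures, DNAJC18 and DNAJC21 passed the interaction test, both with the smaller rise in EHT.

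**Figure D4:**
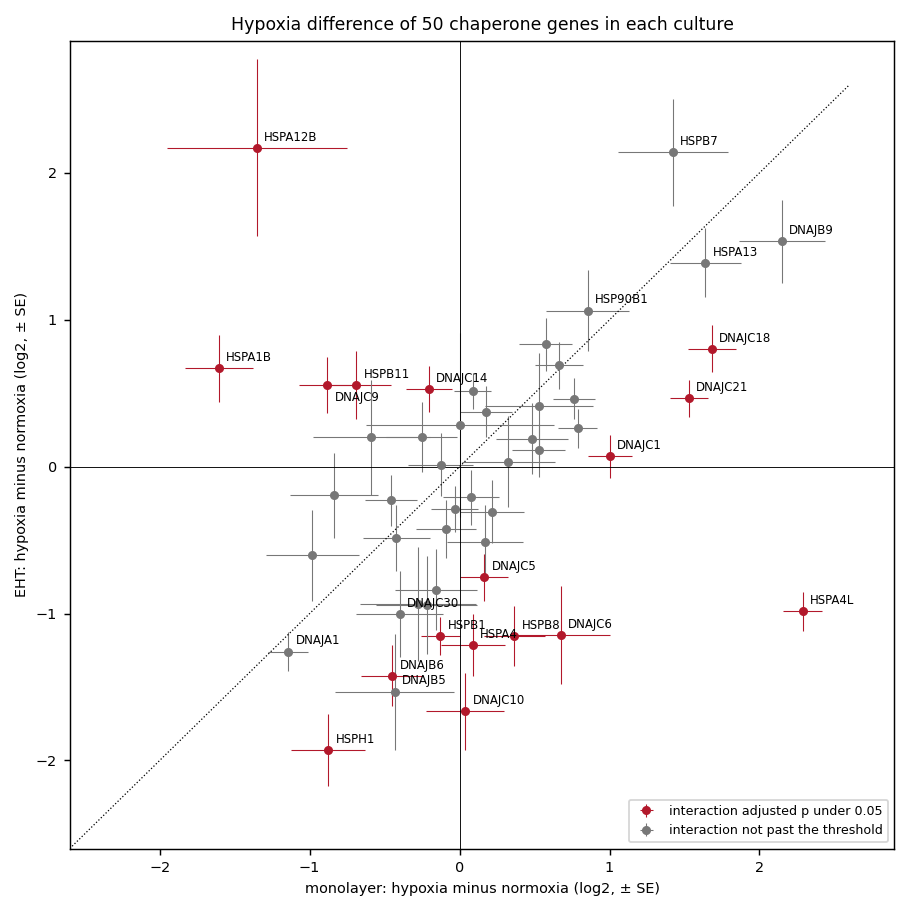
Hypoxia minus normoxia (log2, with standard errors) of the 50 tested members in EHT (vertical axis) against monolayers (horizontal axis), with the 17 members past the interaction threshold in red and a dotted line of equal differences. HSPA4L, at the lower right, is the 1 member that fell in EHT and rose in monolayers. HSPA1B and DNAJC9, at the upper left, rose in EHT and fell in monolayers; HSPA12B also lies there, with a monolayer difference that did not pass the test. At the lower right, DNAJC6 and HSPB8 likewise have monolayer differences that did not pass, and DNAJB9, HSPA13, HSP90B1 and HSPB7 lie at the upper right.

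The culture comparisons can be set side by side in the same way, although each shares libraries with the hypoxia comparisons. DNAJA1, DNAJB4, DNAJB9, DNAJC3, DNAJC15, HSPA9 and HSPB6 were higher in EHT than in monolayers in both oxygen conditions, and HSP90AB1 was lower in both. The share of all genes called alike in both conditions was not counted. HSPA4L was higher in EHT in normoxia and lower in hypoxia, and HSPA1B and HSPB11 were the reverse. In normoxia, 10 of the 31 tested DNAJ genes were higher in EHT and 0 lower with limma, and the 19 heat shock proteins had 7 higher and 5 lower, where 22.8% of all genes were higher and 18.5% lower. The difference between the 2 families was not tested. At an unadjusted p under 0.05, DNAJC7 and DNAJC9 were lower, and voom on the recovered reads called 4 DNAJ genes lower, these and DNAJA4 and DNAJC27. Without centring the DNAJ genes had 1 higher and 2 lower. In hypoxia, 9 DNAJ genes were higher in EHT and 8 lower, where 18.4% of all genes were higher and 19.7% lower. HSPA13 was higher in EHT in normoxia by 0.70 ± 0.23, with groups that overlapped, a value of -0.04 without centring and a call lost without any 1 of EHT normoxia replicates 1 and 3 and monolayer normoxia replicates 1 and 2 (adjusted p = 0.0628 to 0.124).

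**Figure D5:**
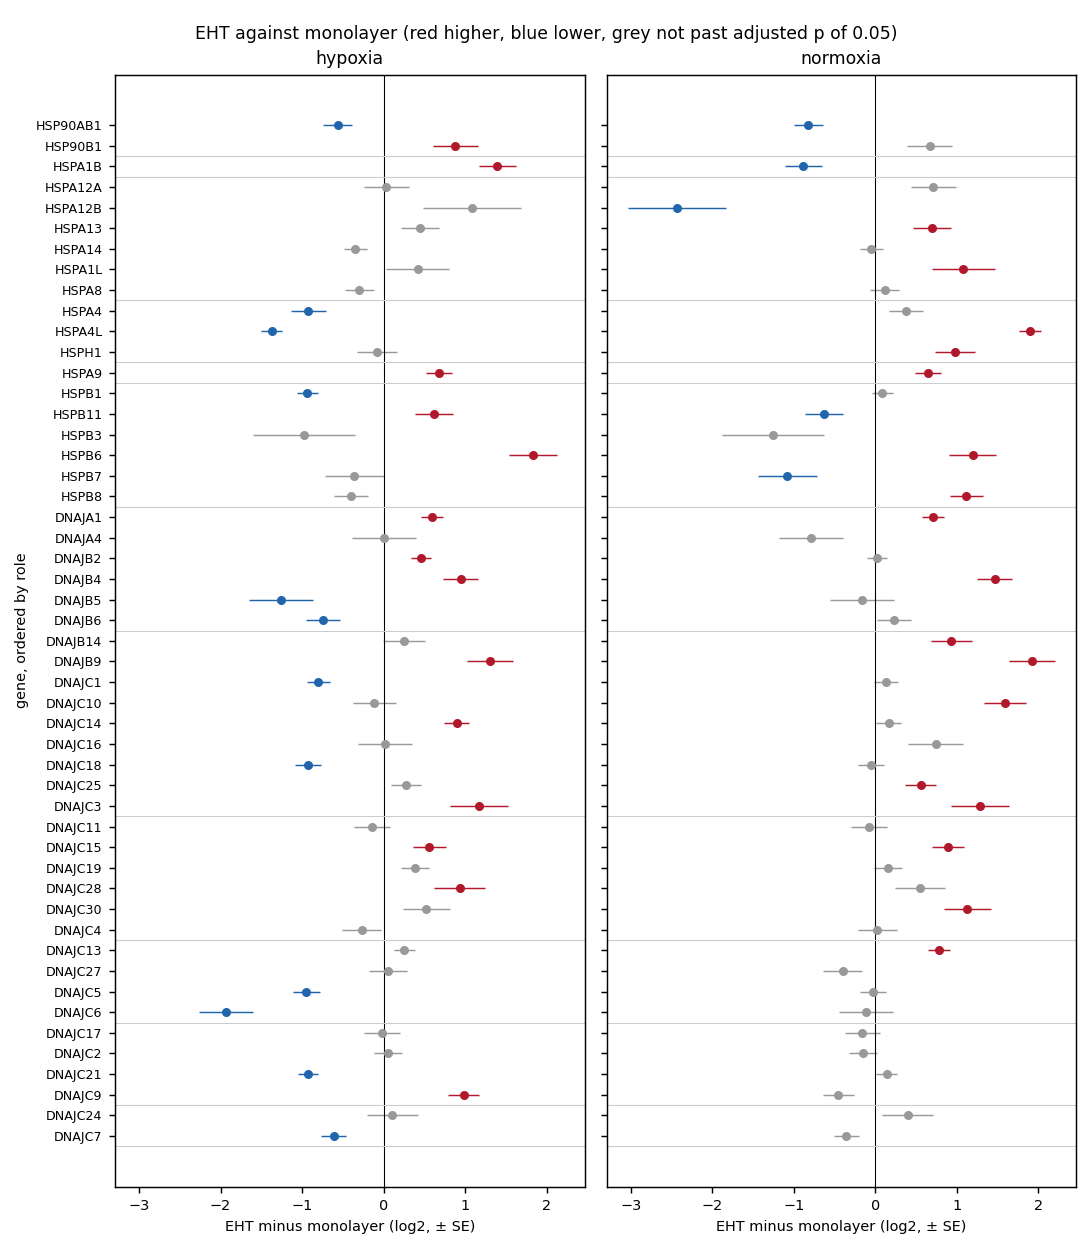
EHT minus monolayer difference (log2, with standard errors) of each tested member, ordered by role, in hypoxia (left panel) and normoxia (right panel), with calls in red (higher in EHT) and blue (lower). In normoxia, 5 of the 9 DNAJ genes of the endoplasmic reticulum are red and the other 4 grey, and HSPA4L changes side between the panels.

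As a share of all reads, the 56 members together took 1.01% ± 0.176 in EHT in hypoxia and 0.829% ± 0.0711 in EHT in normoxia (SD, n = 3 each, here and below). In monolayers they took 0.842% ± 0.0205 in hypoxia and 0.959% ± 0.108 in normoxia. The HSP90 genes held much of this, with 0.592% ± 0.130 in EHT in hypoxia and 0.348% ± 0.0179 in EHT in normoxia, groups that did not overlap. The HSP110 genes took 0.0122% ± 0.0022 in EHT in hypoxia and 0.0386% ± 0.00586 in EHT in normoxia, also without overlap. Both differences had an exact two-sided permutation p of 0.1, the smallest that 3 against 3 libraries allow, and 0.173 after adjustment over 52 such tests. A share falls when other genes take more reads, and the ratios of all members, HSP90 and HSP110 for hypoxia in monolayers, and of all members for culture in normoxia, turned direction when reads were scaled by median-of-ratios factors, as given in the closing section.

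Other genes of the chaperone network were followed in lists chosen by role, with each member tested in the same fit. Of all genes, 19.5% rose and 16.0% fell with hypoxia in EHT, and 27.8% rose and 18.6% fell in monolayers. The median of all genes was 0.03 in EHT and 0.07 in monolayers, and without centring 0.18 and -0.48. Among the nucleotide exchange factors and co-chaperones of HSP70, 4 of 13 tested genes rose and 2 fell with hypoxia in EHT, and 7 rose and 2 fell in monolayers, with median differences of 0.04 in EHT and 0.55 in monolayers. Without centring, 1 gene of this list rose in EHT and 2 fell in monolayers, where all 7 rises were lost, and the medians were 0.19 in EHT and 0.00 in monolayers. GRPEL2, an exchange factor of the mitochondrial HSP70, rose by 1.53 ± 0.23 in EHT and 1.69 ± 0.23 in monolayers. BAG1, another exchange factor, rose by 0.87 ± 0.16 in EHT and 1.59 ± 0.16 in monolayers. STIP1 (HOP), which links HSP70 to HSP90, fell in both, with differences of -1.14 ± 0.16 in EHT and -0.66 ± 0.16 in monolayers. BAG3, the partner of HSPB8, rose in monolayers by 1.69 ± 0.14 (adjusted p = 2.32e-06) and differed by 0.04 ± 0.14 in EHT, with an interaction of -1.66 ± 0.20 (adjusted p = 0.000208). Among the co-chaperones of HSP90, 3 of 10 rose and 3 fell in EHT, and 4 rose and 2 fell in monolayers, with medians of -0.23 in EHT and 0.31 in monolayers. Without centring, 1 fell in each culture and the 7 rises were lost, with medians of -0.08 in EHT and -0.24 in monolayers. The immunophilin FKBP4 rose by 1.14 ± 0.11 in EHT and 1.59 ± 0.11 in monolayers, and AHSA1, which stimulates the HSP90 ATPase, fell in both, with -1.41 ± 0.19 in EHT and -1.17 ± 0.19 in monolayers. UNC45B, the HSP90 co-chaperone that folds myosin in striated muscle, was lower in EHT than in monolayers, with differences of -3.12 ± 0.62 (adjusted p = 0.00198) in hypoxia and -2.67 ± 0.62 (adjusted p = 0.00452) in normoxia, beside 8 of 9 cardiomyocyte markers in hypoxia and 7 of 9 in normoxia, whose part in this was not tested.

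The mitochondrial chaperones and proteases had 5 of 8 genes higher and 1 lower with hypoxia in EHT, and 3 higher in monolayers, with medians of 0.65 in EHT and 0.39 in monolayers. These calls were lost without centring, where the median was 0.80 in EHT and turned to -0.16 in monolayers. The protease LONP1 rose by 1.15 ± 0.17 in EHT and 1.30 ± 0.17 in monolayers, and CLPX, the unfoldase of the ClpXP protease, by 0.74 ± 0.12 in EHT and 1.30 ± 0.12 in monolayers. Of the 8 subunits of TRiC, the cytosolic chaperonin that folds actin and tubulin, 6 were tested. Of these, 2 were higher and 3 lower in EHT, and 3 were higher in monolayers. Their medians of -0.12 in EHT and 0.41 in monolayers turned to 0.03 and -0.14 without centring. In hypoxia, 6 of 6 tested TRiC subunits were lower in EHT than in monolayers, where 19.7% of all genes were lower. The median was -0.79 and, without centring, -0.83, although the 6 calls were lost there. CCT6A had the lowest of these, -1.18 ± 0.14 (adjusted p = 6.97e-05). Of 5 tested heat shock factors and regulators, 1 rose and 1 fell in EHT, and 1 rose in monolayers, where the median of 0.31 turned to -0.24 without centring. HSF1, the main heat shock factor, rose in monolayers by 0.67 ± 0.16 (adjusted p = 0.00398) and differed by 0.08 ± 0.16 in EHT. HSF4, a heat shock factor best known from the lens, rose in EHT by 1.91 ± 0.44 (adjusted p = 0.0047). Of 5 tested crystallins and other heat shock factor targets, 1 rose and 1 fell in EHT, and 2 rose in monolayers. Their medians were 0.31 in EHT and 1.41 in monolayers, and 0.47 and 0.86 without centring. Differences in monolayers ran from 0.06 to 3.11. The highest was that of SQSTM1 (p62), an autophagy receptor, at 3.11 ± 0.16 (adjusted p = 9.11e-08). SQSTM1 differed by 0.31 ± 0.16 in EHT, with an interaction of -2.80 ± 0.23 (adjusted p = 2.79e-05). Of the 6 prefoldin subunits, 5 were tested, with 1 higher and 1 lower in EHT, and 2 higher and 1 lower in monolayers. Their medians of -0.11 in EHT and 0.34 in monolayers turned to 0.04 and -0.21 without centring.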

How the data were processed

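RNA-seq libraries (Ion Total RNA-Seq Kit v2, Ion Proton, per the labels' protocols) came from 12 cultures or samples in 4 groups. Per the submitters' processing notes, the authors used HISAT2, featureCounts and DESeq2. The sources used here do not give their versions, the build, the annotation or the strand setting. Genes therefore carry no positions, and reads of overlapping or antisense genes cannot be told apart. The deposited values are log2 variance-stabilised levels made by the authors, with a lowest value of 3.00 for 0 reads. Inverting the transformation gave whole reads within 0.01 for 100% of values. Symbols of 54 of the 56 members matched RefSeq's list of macaque genes. The symbols HSPA1B and HSPB11 did not, so the identity of these genes was not checked against that list.

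Each library was centred on its median over the 12084 tested genes, whose mean exceeded the lowest value by 1 log2 unit or more. The reason is that library medians differed; the authors' scaling factors divided by median-of-ratios factors ran from 0.412 to 1.42. With limma 3.58.1 (R 4.3.3), the 4 group means were estimated in a single linear model over the 12 libraries, with a variance trend. Each of the 5 comparisons had its own Benjamini-Hochberg adjustment and a two-sided threshold of 0.05. The fit was tested on simulated data. Standard errors ran from 0.10 to 2.55. Shares of reads were compared by exact permutation tests. The number of reads in a library limits the precision of genes with few reads, and limits from 0 reads cover counting error only.

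Same-numbered libraries had correlations of their deviations of -0.06 to 0.33, and in no comparison were all 3 above 0.1, so numbers were not taken as pairs. Alternatives were values without centring, voom on recovered reads, other filters, no variance trend, a replicate block, the compared groups alone, and leaving out libraries. The rule for members uses symbols only, but this family and the lists were picked for description with earlier results of these data known. Genes given in every library were a fixed core of well-known members and, per comparison and direction, up to 6 called members with the largest difference and a mean that exceeded the lowest value by 2 log2 units. The other members and the genes of the network lists were named where called, and some of them after their values were seen.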

Additional observations from a re-analysis of the deposited data

Results flagged for a closer look

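For 17 members the hypoxia difference in EHT differed from that in monolayers by a test of the difference itself (limma interaction, adjusted p under 0.05), and these are listed with the interaction, EHT minus monolayer, on the log2 scale. The difference was higher in EHT for 5 members: HSPA12B (3.52), HSPA1B (2.28), DNAJC9 (1.44), HSPB11 (1.25) and DNAJC14 (0.73). It was lower in EHT for 12 members: HSPA4L (-3.27), DNAJC6 (-1.82), DNAJC10 (-1.70), HSPB8 (-1.52), HSPA4 (-1.30), DNAJC21 (-1.07), HSPH1 (-1.05), HSPB1 (-1.02), DNAJB6 (-0.97), DNAJC1 (-0.93), DNAJC5 (-0.92) and DNAJC18 (-0.88). Without centring, HSPA12B, HSPA1B, DNAJC9, HSPB11 and HSPA4L were still called, and all 17 kept their sign. Groups of 3 libraries were not searched for outlying samples.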

How the results depend on the processing

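All values are in the order hypoxia in EHT, hypoxia in monolayers, culture in normoxia, culture in hypoxia and interaction. Without centring, the members called higher numbered 4, 2, 1, 2 and 4, and those called lower 2, 8, 8, 2 and 1. That setting keeps the differences between library medians. Of 101 values of members named by the rule, 54 kept their side of the threshold in it, of which 11 were called on neither scale and changed sign. Another 44 lost the call with the same sign. The last 3 lost it and turned sign, HSPA8 for hypoxia in monolayers (-0.0236), and HSPA9 (-0.0865) and DNAJA1 (-0.0242) for culture in normoxia. Over all called members, 5 turned sign, the other 2 being DNAJC25 (-0.18) and HSPA13 (-0.04) for culture in normoxia. With voom on the recovered reads, 12, 13, 16, 11 and 5 members were higher and 14, 11, 10, 13 and 12 lower; the 10 lower for culture in normoxia stand against 5 with centred values, and the cause was not tested. Filters, the variance trend, the compared groups alone and leaving out both EHT libraries numbered 3 moved no count by over 1.5 times; the interaction was not run on the compared groups alone.

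The replicate number as a block gave 14, 13, 18, 13 and 5 members higher and 13, 7, 4, 12 and 12 lower, with 1 call of a named member lost. With 1 library left out in turn, the members higher ranged over 9 to 14, 10 to 14, 13 to 20, 9 to 14 and 4 to 6, and the members lower over 10 to 16, 5 to 10, 3 to 8, 9 to 13 and 10 to 15.

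For shares of reads, scaling by median-of-ratios factors turned 4 of the 12 log2 ratios of group means for all members, HSP90 and HSP110, and ratios of other families were among those it turned too. For all members the ratio was 0.46 for hypoxia in monolayers (-0.19 as a share) and 0.0885 for culture in normoxia (-0.21). For hypoxia in monolayers, that of HSP90 was 0.59 (-0.07) and that of HSP110 was 0.22 (-0.43). For culture in normoxia, that of HSP90 was -0.14 (-0.44). Genes with few reads, such as HSPA1L, HSPA12B and HSPB3, are limited by depth.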
